A study of Mus musculus with 12 samples.

Results

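The Rab genes described here encode small GTPases of membrane traffic. They are the 45 rows of the expression table whose names are Rab, a number and at most 1 letter from a to d, and whose level reached 1 TPM, a unit of relative transcript abundance, in at least 3 of the 12 libraries. They were picked by a rule on name and level, out of 58 such names and 24279 rows. Earlier results of these data were known when the members were chosen. The same threshold of level was passed by 12594 genes in all, which were tested together with the 45 members among them. The 2 members nearest to the threshold on the inside, Rab4a and Rab37, reached 1 TPM in exactly 3 libraries. Another 13 names stayed outside it, and of these Rab3c, Rab39, Rab30, Rab36 and Rab40b reached 1 TPM in 1 or 2 libraries. No member passed through a single group only, and 35 of the 45 were at 1 TPM or more in all 12 libraries.

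Rab proteins are molecular switches. A guanine nucleotide exchange factor (GEF) loads a Rab with GTP on its own membrane, the GTP-bound form recruits effectors that tether, move and fuse vesicles, and a GTPase-activating protein (GAP) switches it off, after which the GDP dissociation inhibitor takes the prenylated protein back into the cytosol. Each Rab marks a compartment: Rab5 proteins the early endosome, Rab7 the late endosome and lysosome, Rab11 and Rab4 proteins the recycling endosome, Rab1 and Rab2 proteins the road between endoplasmic reticulum (ER) and Golgi, Rab3 and Rab27 proteins secretory granules, and Rab32, Rab38 and Rab20 lysosome-related organelles and maturing phagosomes. Macrophages take up oxidised low-density lipoprotein (oxLDL) through scavenger receptors and carry it along this endocytic route to the lysosome.

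The libraries were bulk RNA-seq of mouse peritoneal macrophages in 4 groups of 3. The groups were Pim1-/- cells given oxLDL at 20 µg/mL for 8 h, Pim1-/- cells given PBS, WT cells given the same oxLDL treatment, and WT cells given PBS, all in RPMI with serum. Pim1 is a serine/threonine kinase, and the design asks how its loss and oxLDL change transcript levels. The labels give no strain, age or sex, do not say how the Pim1-/- allele was made or how the cells were elicited, and do not tell whether replicate libraries are separate animals, cultures or preparations of 1 pool. The p-values therefore measure only how much these 12 libraries vary within groups, and that variation may be technical.

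TPM divides each gene's estimated reads by transcript length and makes every library sum to the same total, so levels can be set side by side between genes but read depth is not known. Relative to the mean library, the median gene stood at 0.561 to 1.49 times, highest in the WT PBS libraries, so each change is given both on TPM as deposited (unscaled) and after dividing each library by its median ratio (median-scaled). Pim1 itself was at 47.8, 13.6 and 12.3 TPM in Pim1-/- oxLDL and 13.9, 10.2 and 30.6 TPM in Pim1-/- PBS, against 365, 56.0 and 114 TPM in WT oxLDL and 93.1, 68.5 and 77.6 TPM in WT PBS. The 8 macrophage markers summed to 12200 to 24500 TPM over all libraries, mostly through Lyz2 and Cd68, and single ones among them moved with the groups. Csf1r was at 98.5 to 119 TPM in Pim1-/- oxLDL and 155 to 402 TPM in Pim1-/- PBS, against 123 to 412 TPM in WT oxLDL and 494 to 777 TPM in WT PBS. Cd68 went the other way between genotypes, at 2920 to 3839 TPM in Pim1-/- oxLDL against 1195 to 2806 TPM in WT oxLDL. In PBS it was at 2550 to 3733 TPM in Pim1-/- against 967 to 2128 TPM in WT cells. Adgre1 was, like Csf1r, lower in every Pim1-/- library than in any WT library of the same treatment. Cd14 was at 1251 to 1504 TPM in Pim1-/- oxLDL against 170 to 223 TPM in Pim1-/- PBS, and at 788 to 1252 TPM in WT oxLDL against 45.7 to 124 TPM in WT PBS. The third WT PBS library had 12867 rows at 0, against 8204 to 9964 in the others, and its markers of T and NK cells summed to 492 TPM, against at most 27.8 TPM in the other 11 libraries. The second WT oxLDL library resembled the first Pim1-/- oxLDL library most closely (Spearman's rho 0.955 over all 24279 rows). The counts and calls of Rab members were also computed without the third WT PBS and the second WT oxLDL library. Role shares, parts within paralogues, correlations and the counts of the partner lists were not.

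Rab7, the GTPase of late endosomes and lysosomes, was the most abundant member in TPM, which is a level per length. It had 286, 341 and 384 TPM in Pim1-/- oxLDL and 396, 1050 and 407 TPM in Pim1-/- PBS, against 241, 301 and 679 TPM in WT oxLDL and 857, 714 and 824 TPM in WT PBS. Its values were below the PBS values in every oxLDL library of the same genotype, and neither difference passed the test (unscaled adjusted p = 0.339 in Pim1-/- and 0.0844 in WT cells). After Rab7 in mean level came Rab32, Rab8b, Rab5c, Rab1b, Rab7b, Rab14, Rab1, Rab31, Rab20 and Rab10, and neighbours in this order overlapped in their library values. At the low end, Rab26, Rab4a and Rab37 averaged about 1 TPM or less.

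**Figure D1:**
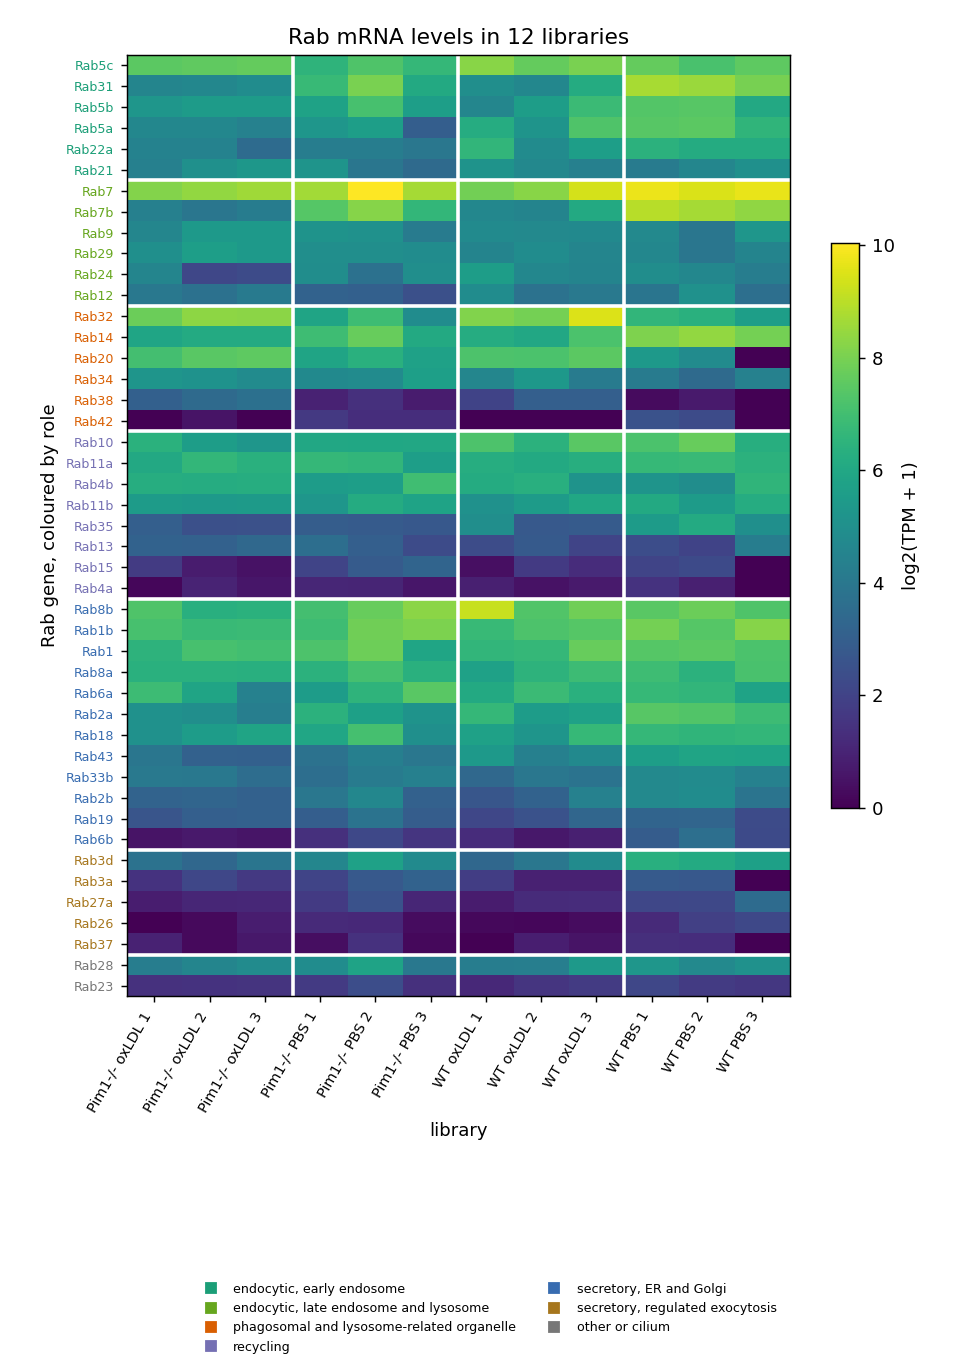
Level of each of the 45 Rab genes, as log2(TPM + 1) on the colour scale, in the 12 libraries (columns, grouped by genotype and treatment). Gene names are coloured by role and sorted by mean level within a role, and the rows of Rab32, Rab20 and Rab38 are brighter in oxLDL columns while those of Rab7b and Rab31 are darker.

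The members of each role took different shares of the summed Rab TPM in the 4 groups. The 6 phagosomal and lysosome-related members (Rab14, Rab20, Rab32, Rab34, Rab38 and Rab42) made up 24.7% of it in Pim1-/- oxLDL (20.98% to 26.6%) against 10.1% in Pim1-/- PBS (8.28% to 11.3%), and 21.9% in WT oxLDL (17.6% to 26.7%) against 9.34% in WT PBS (8.12% to 10.6%). The oxLDL and PBS ranges were apart in both genotypes. The summed share of the 6 late endosomal members went the other way. Its mean was 20.1% in Pim1-/- oxLDL against 29.3% in Pim1-/- PBS, and 17.1% in WT oxLDL against 30.4% in WT PBS. Most of this sum was Rab7. In Pim1-/- cells the unscaled mean levels of Rab7, Rab7b and Rab24 were lower with oxLDL and those of Rab9, Rab12 and Rab29 higher. The median log2 change of the 6 with oxLDL was -0.20 in Pim1-/- and 0.06 in WT cells unscaled. After median scaling it was 0.37 in Pim1-/- and 0.96 in WT cells. The 5 members of regulated exocytosis were at 0.726% in Pim1-/- oxLDL against 1.48% in Pim1-/- PBS, and at 0.647% in WT oxLDL against 1.86% in WT PBS. The 6 early endosomal members held 14.5% in Pim1-/- oxLDL (14% to 14.98%) against 16.8% in WT oxLDL (15.34% to 18.66%). In PBS they held 13.6% in Pim1-/- (10.4% to 15.54%) against 20.9% in WT cells (18.16% to 22.55%), apart between genotypes under each treatment. The 12 ER and Golgi members held 26.8% in Pim1-/- oxLDL, 33.8% in Pim1-/- PBS, 31.6% in WT oxLDL and 26.9% in WT PBS, with overlapping libraries, and the 8 recycling members held between 9.80% and 12.1% in every group. Summed over all 45 members, unscaled Rab mRNA was at 2254 ± 75 TPM in Pim1-/- oxLDL and 2944 ± 983 TPM in Pim1-/- PBS, against 3135 ± 863 TPM in WT oxLDL and 4287 ± 419 TPM in WT PBS (SD, n = 3 each). After median scaling the sums were 3194, 3899 and 3953 in Pim1-/- oxLDL and 2839, 3317 and 3178 in Pim1-/- PBS. In WT cells they were 5358, 3310 and 4919 with oxLDL and 3289, 2911 and 3534 in PBS. The lower sums with oxLDL were thus seen only without scaling. These are shares and sums of bulk RNA, in which fewer cells of a type and less RNA per cell cannot be told apart.

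The comparison of oxLDL with PBS asks which Rab genes respond to lipoprotein loading. With limma on log2(TPM + 1), adjusted over all 12594 genes by the Benjamini-Hochberg method and called at an adjusted p under 0.05, 2 members were higher and 2 lower with oxLDL in Pim1-/- cells, where 4.45% of all tested genes were called higher and 7.80% lower. In WT cells 3 members were higher and 10 lower, where 5.83% of all tested genes were called higher and 27% lower. After median scaling the Pim1-/- comparison called 4 members higher and 2 lower (6.91% and 4.39% of all genes), and the WT comparison called 6 higher and 4 lower (12.2% and 8.18% of all genes). The median change over the 45 members was -0.33 in Pim1-/- and -0.45 in WT cells on unscaled TPM, beside -0.50 in Pim1-/- and -0.70 in WT cells over all tested genes. After median scaling it was 0.19 in Pim1-/- and 0.29 in WT cells, beside -0.05 in Pim1-/- and 0.07 in WT cells over all genes. The share of members called was thus near that of all genes, and what follows is about single members. Single libraries moved 3 of the unscaled counts by over 1.5 times: the lower count in Pim1-/- cells was 6 without the third WT PBS library, the higher count there was 1 without the second or the third Pim1-/- oxLDL library, and the lower count in WT cells was 5 without the second WT oxLDL library. In Pim1-/- cells 4 members were called with both scalings, and in WT cells 7. Counted by overlap on unscaled TPM, all 3 oxLDL libraries were above all 3 PBS libraries for 6 members in Pim1-/- and 3 in WT cells (8.54% and 7.95% of all genes). They were below them for 9 and 13 members (29.6% and 34.7% of all genes). After median scaling they were above for 7 members in Pim1-/- and 12 in WT cells (15.7% and 19.3% of all genes). They were then below for 6 and 7 members (16.5% and 16.1% of all genes).

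Rab32, which with Rab38 directs traffic to lysosome-related organelles such as melanosomes, was the phagosomal member with the highest level. It had 219, 322 and 309 TPM in Pim1-/- oxLDL against 56.8, 121 and 28.8 TPM in Pim1-/- PBS, and 281, 243 and 729.9 TPM in WT oxLDL against 95.2, 82.3 and 48.6 TPM in WT PBS. Every oxLDL library was above every PBS library, the third WT oxLDL library highest. The unscaled log2 change with oxLDL was 2.24 (SE 0.54, adjusted p = 0.0143) in Pim1-/- cells and 2.33 (SE 0.54, adjusted p = 0.00579) in WT cells. After median scaling it was 2.82 (adjusted p = 0.000803) in Pim1-/- cells and 3.26 (adjusted p = 0.000199) in WT cells. The Pim1-/- call was lost without the second Pim1-/- oxLDL library (adjusted p = 0.0681) and without the third (adjusted p = 0.0645).

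Rab38, its close relative, also rose, at far lower levels. It was at 7.36, 10.1 and 12.1 TPM in Pim1-/- oxLDL against 0.953, 1.64 and 0.714 TPM in Pim1-/- PBS, and at 3.06, 7.31 and 7.17 TPM in WT oxLDL against 0.212, 0.652 and 0 TPM in WT PBS. The groups did not overlap, and the level in WT PBS was under 1 TPM throughout. The unscaled log2 change was 2.37 (SE 0.41, adjusted p = 0.00167) in Pim1-/- cells and 2.37 (SE 0.41, adjusted p = 0.00095) in WT cells, which on the log2(TPM + 1) scale understates the change of so low a gene. Median scaling gave 2.97 (adjusted p = 9.29e-05) in Pim1-/- and 2.92 (adjusted p = 8.26e-05) in WT cells. Rab38 was also above the WT range in Pim1-/- cells under each treatment, and as the mean difference between genotypes it was called higher after median scaling (0.88 with adjusted p = 0.0467) and not on unscaled TPM (adjusted p = 0.113).

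Rab20, a regulator of phagosome maturation, was at 132, 177 and 188 TPM in Pim1-/- oxLDL against 57.5, 82.6 and 53.1 TPM in Pim1-/- PBS, and at 150.4, 144 and 182.5 TPM in WT oxLDL against 40.8, 28 and 0 TPM in WT PBS. The oxLDL libraries lay above the PBS libraries in both genotypes, and the third WT PBS library is listed at 0. In WT cells the unscaled log2 change was 3.90 (SE 0.97, adjusted p = 0.00828), and without the third WT PBS library it was 2.19 (adjusted p = 0.0013). In Pim1-/- cells the change was 1.36 (SE 0.97, adjusted p = 0.377), which did not pass, in a fit whose shared spread for Rab20 includes the WT PBS library at 0. The other phagosomal members were less uniform. Rab34, of macropinosomes and phagosome-lysosome fusion, was called higher in WT cells after median scaling (1.58 with adjusted p = 0.0336) and not on unscaled TPM. Rab14, which acts on early phagosomes, was called lower in WT cells on unscaled TPM (log2 change -1.67) and not after median scaling. Rab42 was at 0, 0.46 and 0 TPM in Pim1-/- oxLDL against 2.21, 1.46 and 1.51 TPM in Pim1-/- PBS, and at 0, 0 and 0 TPM in WT oxLDL against 4.71, 3.89 and 0 TPM in WT PBS. It is thus listed at 0 in all WT oxLDL libraries and in the third WT PBS library. With all libraries it was called lower in WT cells on unscaled TPM and not after median scaling, and without the third WT PBS library with both (adjusted p = 8.62e-05 unscaled and 0.00219 median-scaled).

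The DNA just upstream of the RefSeq start of 3 of the called members, 2 that rose and 1 that fell, is printed to show what these promoters hold. Each window is the 250 bases before the annotated start in the RefSeq promoter table of build GRCm38.p6, written 5′ to 3′ on the gene's strand, which is the minus strand for all 3. The Rab20 window is chr8:11478641-11478890, the Rab32 window chr10:10558208-10558457 and the Rab31 window chr17:65772753-65773002. In the GENCODE annotation Rab20 begins at 11478710 and Rab32 at 10558265, so the 3′ part of these windows lies within the GENCODE gene. Capitals mark a match to one of 4 motifs searched on both strands.
Rab20: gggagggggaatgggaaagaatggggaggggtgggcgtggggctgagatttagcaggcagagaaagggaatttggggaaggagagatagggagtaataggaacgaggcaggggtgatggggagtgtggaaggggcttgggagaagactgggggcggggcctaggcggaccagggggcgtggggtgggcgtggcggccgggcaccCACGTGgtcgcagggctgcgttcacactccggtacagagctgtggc
Rab32: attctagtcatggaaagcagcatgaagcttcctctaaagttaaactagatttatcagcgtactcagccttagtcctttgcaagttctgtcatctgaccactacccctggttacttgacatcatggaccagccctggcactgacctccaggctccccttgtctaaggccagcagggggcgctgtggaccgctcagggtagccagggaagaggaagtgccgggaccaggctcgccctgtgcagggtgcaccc
Rab31: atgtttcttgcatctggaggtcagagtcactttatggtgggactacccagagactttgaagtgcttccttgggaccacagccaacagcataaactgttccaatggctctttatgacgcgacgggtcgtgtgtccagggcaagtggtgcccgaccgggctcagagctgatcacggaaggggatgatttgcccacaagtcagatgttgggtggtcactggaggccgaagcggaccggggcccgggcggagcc
The 4 motifs were the kappaB site, the interferon-stimulated response element core, the AP-1 site TGANTCA and the E-box CACGTG. Rab20 held 1 CACGTG and the other 2 windows held no match. The Rab20 match lies 46 to 41 bases before the RefSeq start, within the GENCODE gene. Of the 45 members 38 had an entry, with 50 windows in all. Among these windows 6% held the kappaB site, 2% the response element core, 4% TGANTCA and 10% CACGTG, beside 7.25%, 2.98%, 6.75% and 6.02% of the 32851 windows of all genes. A match is a run of letters, not a measured binding site.

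Rab7b, a late endosomal Rab that in macrophages has been linked to the turnover of Toll-like receptors, had the deepest fall of all members. It was at 19.5, 14.4 and 17.4 TPM in Pim1-/- oxLDL against 166, 295 and 100.3 TPM in Pim1-/- PBS, and at 23.9, 22.1 and 68 TPM in WT oxLDL against 499, 411 and 331 TPM in WT PBS. No oxLDL library reached the lowest PBS library. The unscaled log2 change was -3.25 (SE 0.48, adjusted p = 0.000461) in Pim1-/- cells and -3.58 (SE 0.48, adjusted p = 0.000129) in WT cells, and median scaling gave -2.71 (adjusted p = 0.000313) in Pim1-/- and -2.66 (adjusted p = 0.000266) in WT cells. Rab7b also took a smaller part of the Rab7 plus Rab7b sum, a ratio within a library that no scaling moves. That part was 6.38, 4.05 and 4.33% in Pim1-/- oxLDL against 29.5, 21.9 and 19.8% in Pim1-/- PBS, and 9.04, 6.85 and 9.11% in WT oxLDL against 36.8, 36.6 and 28.7% in WT PBS. The oxLDL and PBS values were apart in both genotypes, and the PBS values of the Pim1-/- libraries reached above the lowest WT PBS value only in the first library. The remaining late endosomal members were Rab9, which works between late endosome and Golgi, Rab24 of autophagy, Rab12, which sends transferrin receptor to lysosomes, and Rab29, a partner of the kinase LRRK2. Of these 4, none was called on unscaled TPM in either oxLDL comparison. After median scaling Rab12 was called higher in Pim1-/- cells (1.62 with adjusted p = 0.0285) and Rab29 in WT cells (1.19 with adjusted p = 0.0332).

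Rab31, which carries cargo between the trans-Golgi network and early endosomes, was the early endosomal member that fell. Its levels were 22.6, 24 and 28.8 TPM in Pim1-/- oxLDL against 109, 260.3 and 68.2 TPM in Pim1-/- PBS, and 30.4, 23.8 and 70.8 TPM in WT oxLDL against 418, 371 and 249.5 TPM in WT PBS. The oxLDL libraries were below the PBS libraries in WT cells without overlap and in Pim1-/- cells likewise. The unscaled log2 change was -2.27 (SE 0.51, adjusted p = 0.00933) in Pim1-/- cells and -3.15 (SE 0.51, adjusted p = 0.000559) in WT cells, with -1.72 (adjusted p = 0.0127) in Pim1-/- and -2.23 (adjusted p = 0.00181) in WT cells after median scaling. The close paralogue Rab22a, which sits on early endosomes and their recycling tubules, was called in neither oxLDL comparison (unscaled log2 change -0.03 in Pim1-/- and -0.56 in WT cells).

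Rab5c was the most abundant of the Rab5 proteins that build the early endosome. It had 179, 190.5 and 201 TPM in Pim1-/- oxLDL against 91.5, 153 and 103 TPM in Pim1-/- PBS, and 303, 201 and 261 TPM in WT oxLDL against 203, 140.5 and 185 TPM in WT PBS. The Pim1-/- groups did not overlap and the WT groups did. The change was called after median scaling in both genotypes (1.32 with adjusted p = 0.0225 in Pim1-/- and 1.46 with adjusted p = 0.00908 in WT cells), and not on unscaled TPM (adjusted p = 0.186 in Pim1-/- and 0.262 in WT cells). Within the sum of Rab5a, Rab5b and Rab5c, the part of Rab5c was 74.5, 73.6 and 75.7% in Pim1-/- oxLDL against 49.8, 45 and 64.9% in Pim1-/- PBS, and 75.8, 70.7 and 49.5% in WT oxLDL against 38, 28.6 and 53.5% in WT PBS. The Rab5c part was apart between treatments in Pim1-/- cells and overlapped in WT cells, where the third oxLDL library was below the third PBS library.

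Of the secretory members, Rab3d, which tethers secretory granules for regulated exocytosis, was at 12.7, 9.17 and 14.1 TPM in Pim1-/- oxLDL against 23.1, 52.4 and 27.1 TPM in Pim1-/- PBS, and at 9.08, 14.6 and 28 TPM in WT oxLDL against 79.99, 69 and 51 TPM in WT PBS. The groups did not overlap in either genotype. It fell in WT cells (-2.005, SE 0.45, with adjusted p = 0.00492 unscaled, and -1.11 with adjusted p = 0.0323 median-scaled) and did not pass in Pim1-/- cells (-1.37, SE 0.45, adjusted p = 0.0621 unscaled). Rab6b, a Golgi Rab best known from neurons, was at 0.463, 0.599 and 0.467 TPM in Pim1-/- oxLDL against 1.6, 3.58 and 1.92 TPM in Pim1-/- PBS, and at 1.42, 0.563 and 0.86 TPM in WT oxLDL against 6.5, 11.8 and 3.75 TPM in WT PBS. It too fell in WT cells (-2.01, SE 0.42, adjusted p = 0.00322 unscaled, and -1.37 with adjusted p = 0.0203 median-scaled) and did not pass in Pim1-/- cells, with the groups apart in both. The median-scaled WT calls of Rab3d and Rab6b were lost without the second WT oxLDL library (adjusted p = 0.0969 and 0.0862). Rab26 and Rab27a of granule secretion and Rab2a of the ER to Golgi road were called lower in WT cells on unscaled TPM, with log2 changes of -1.50, -1.51 and -1.21, and not after median scaling. The highest Rab27a value, 10.48 TPM, was in the third WT PBS library. That library also had the highest sums of T and NK cell (492 TPM), B cell (37.8 TPM) and mast cell markers (20 TPM). Without it the Rab27a change was -1.06 (adjusted p = 0.0496). Whether other cells gave this level was not tested.

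**Figure D2:**
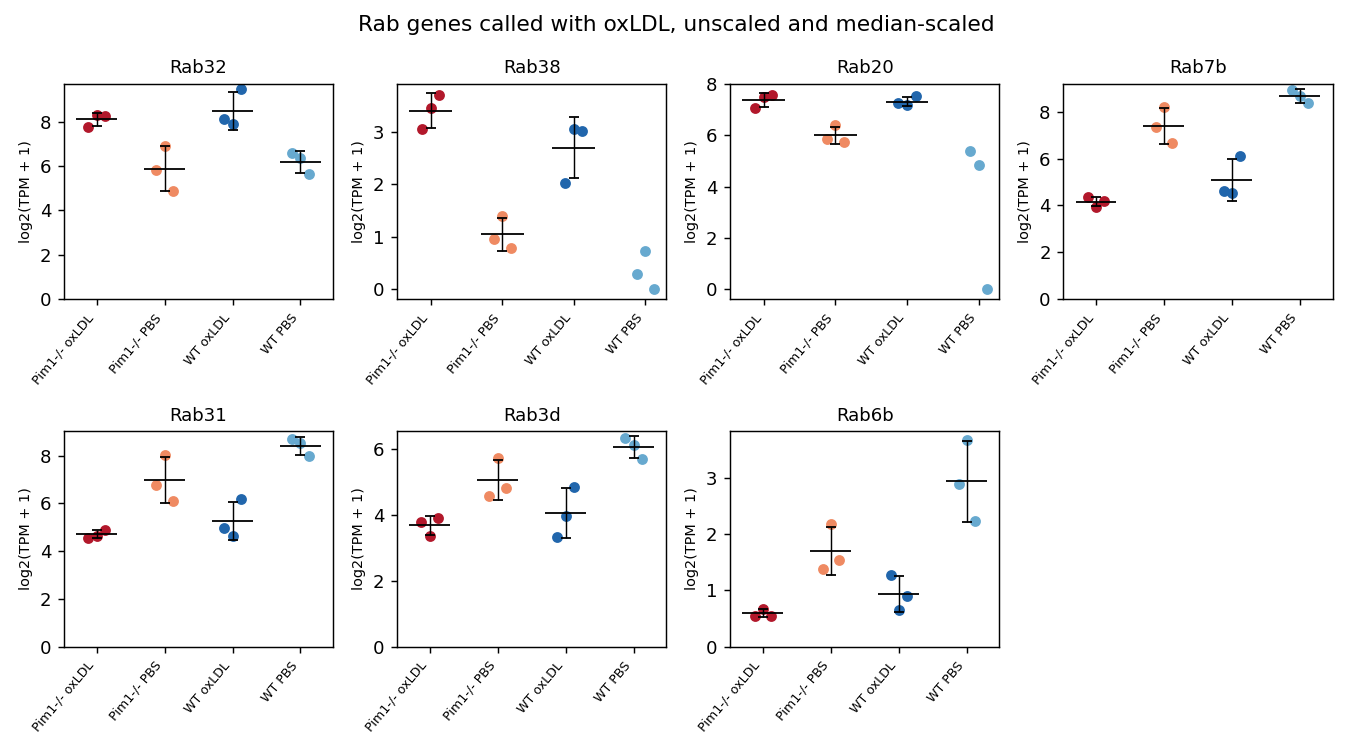
Level in log2(TPM + 1) of the 7 Rab genes called in WT cells with oxLDL on unscaled and on median-scaled TPM, in 4 groups of 3 libraries. Points are libraries and bars are mean ± SD, left out where a library is listed at 0, and the oxLDL points lie above the PBS points of the same genotype for Rab32, Rab38 and Rab20 and below them for the other 4 genes.

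The most abundant members of the other roles did not pass in either oxLDL comparison. Rab8b, which carries cargo from the Golgi to the plasma membrane, had 153, 78.5 and 85.2 TPM in Pim1-/- oxLDL against 130.5, 210.3 and 315 TPM in Pim1-/- PBS, and 589, 158 and 233 TPM in WT oxLDL against 176, 222 and 156 TPM in WT PBS. Its first WT oxLDL library stood far above the other 11. Rab10, which recycles receptors and transporters to the surface, had 84.2, 47.1 and 37.2 TPM in Pim1-/- oxLDL and 64.7, 61.3 and 64.1 TPM in Pim1-/- PBS, against 148, 85.8 and 177 TPM in WT oxLDL and 144, 209.8 and 78.4 TPM in WT PBS. Rab28, a Rab of cilia and photoreceptors, had 18, 22.5 and 27.9 TPM in Pim1-/- oxLDL against 28.8, 56.3 and 15.1 TPM in Pim1-/- PBS, and 18.2, 18.7 and 42.2 TPM in WT oxLDL against 37.8, 25.7 and 33 TPM in WT PBS, with overlapping groups throughout. Of the 8 recycling members only Rab35 was called with oxLDL, lower in WT cells on unscaled TPM (-1.98, SE 0.53, adjusted p = 0.0125) and not after median scaling (adjusted p = 0.204).

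The order of the oxLDL differences was alike in Pim1-/- and WT cells. Over the 45 members, the unscaled changes of Pim1-/- and WT cells, which share no library, had a Pearson correlation of 0.79 and a Spearman correlation of 0.62, and 39 members had the same sign, 9 of them higher and 30 lower in both. After median scaling the correlations were 0.80 and 0.69, and 34 members had the same sign, 21 higher and 13 lower. These correlations are across genes, which are not independent replicates. They and the sign counts were not computed over all tested genes, so they show no likeness particular to Rab genes. On unscaled TPM the median of all tested genes was also lower with oxLDL in both genotypes (-0.50 in Pim1-/- and -0.70 in WT cells). The direct test of a different response between genotypes, the interaction term in limma, called 0 members (smallest adjusted p = 0.986), where 0.00794% of all tested genes were called higher and 0% lower. At an unadjusted p under 0.05 it had 1 member higher and 2 lower in Pim1-/- than in WT cells, beside 3.03% of all tested genes in either direction. For Rab20 the difference between the responses was -2.54 (SE 1.37) and for Rab7b 0.33 (SE 0.68), both unscaled log2, so the Rab20 difference had a standard error of over 1 log2 unit. The Rab20 difference also includes the third WT PBS library, where Rab20 is listed at 0.

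**Figure D3:**
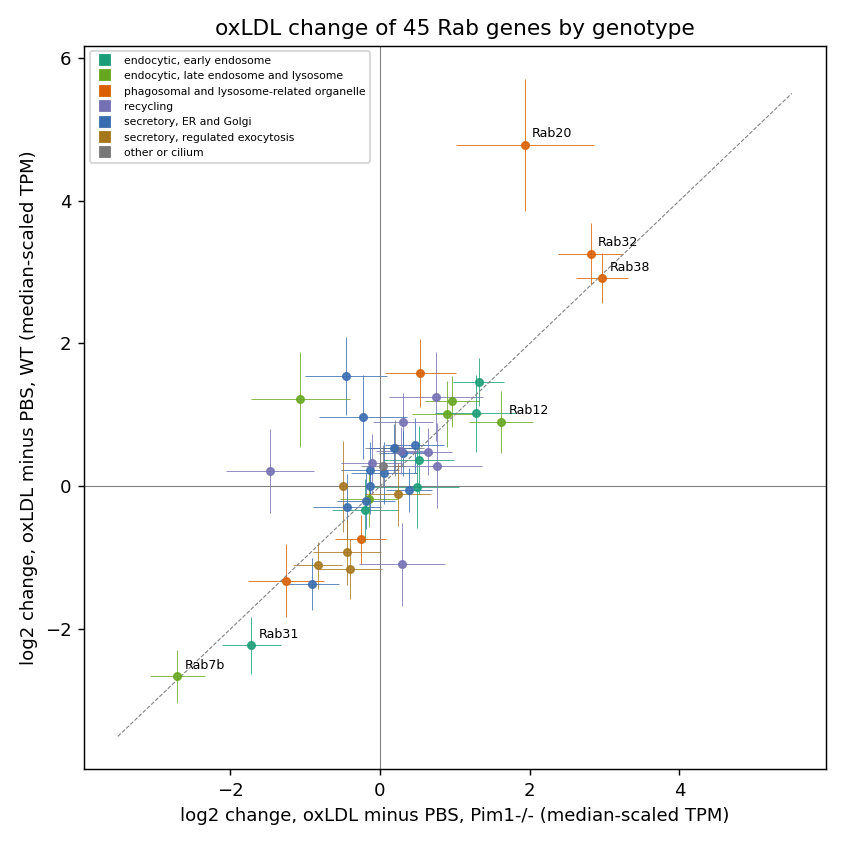
Median-scaled log2 change with oxLDL of the 45 Rab genes in Pim1-/- cells (horizontal) and WT cells (vertical), coloured by role, with limma's standard errors as bars and a dashed line of equal change. Rab32 and Rab38 lie at the upper right near the line, Rab20 above it, and Rab7b and Rab31 at the lower left. The WT change of Rab20 includes the third WT PBS library, where it is listed at 0.

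The comparison of Pim1-/- with WT cells asks which Rab genes depend on the kinase. Averaged over PBS and oxLDL, 6 members were lower and 0 higher in Pim1-/- cells on unscaled TPM, where 8.21% of all tested genes were called lower and 2.94% higher. After median scaling 4 members were lower and 2 higher, beside 4.03% and 4.65% of all genes. The median over the members was -0.28 unscaled and 0.06 median-scaled, beside -0.30 and -0.01 over all genes. Rab5a, Rab22a, Rab35 and Rab43 were lower with both scalings. They are early endosomal (Rab5a and Rab22a), recycling (Rab35) and ER and Golgi (Rab43) members.

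Rab5a, the best studied of the Rab5 proteins of early endosome fusion, was at 23.8, 24.3 and 20.4 TPM in Pim1-/- oxLDL and 37.8, 49 and 7.05 TPM in Pim1-/- PBS, against 73.3, 35.7 and 152 TPM in WT oxLDL and 169.8, 179 and 94.9 TPM in WT PBS. Under each treatment every Pim1-/- library was below every WT library. The mean log2 difference was -2.09 (SE 0.45, adjusted p = 0.0145) unscaled and -1.76 (adjusted p = 0.0327) median-scaled. Its part of the Rab5 sum was 9.91, 9.4 and 7.66% in Pim1-/- oxLDL and 20.5, 14.4 and 4.45% in Pim1-/- PBS, against 18.4, 12.6 and 28.8% in WT oxLDL and 31.9, 36.4 and 27.5% in WT PBS, apart under each treatment. The gene lies on chromosome 17, as Pim1 does (chr17:29490753-29496112, GRCm38), with 4 other members of which none was called in this comparison.

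Rab22a was at 20.9, 20.9 and 10.3 TPM in Pim1-/- oxLDL and 18, 18.2 and 14.9 TPM in Pim1-/- PBS, against 96.5, 27.8 and 48.3 TPM in WT oxLDL and 85.6, 70.6 and 70.4 TPM in WT PBS. No Pim1-/- library reached the lowest WT library, which was the second WT oxLDL library. The mean log2 difference was -1.82 (SE 0.32, adjusted p = 0.0078) unscaled and -1.50 (adjusted p = 0.0322) median-scaled. Rab43, of ER to Golgi and retrograde traffic, was at 14.2, 7.67 and 7.51 TPM in Pim1-/- oxLDL and 12.8, 19.4 and 14.7 TPM in Pim1-/- PBS, against 41.2, 19.8 and 26.5 TPM in WT oxLDL and 48.3, 57 and 55.9 TPM in WT PBS. All Pim1-/- values were below all WT values. The mean log2 difference was -1.60 (SE 0.28, adjusted p = 0.0078) unscaled and -1.29 (adjusted p = 0.0305) median-scaled.

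Rab35, which returns receptors from endosomes to the plasma membrane, was at 7.32, 4.42 and 4.59 TPM in Pim1-/- oxLDL and 6.69, 6.38 and 5.77 TPM in Pim1-/- PBS, against 30.1, 6.04 and 6.41 TPM in WT oxLDL and 44.5, 68.8 and 30.6 TPM in WT PBS. The WT PBS libraries stood apart, whereas of the WT oxLDL libraries only the first was above the Pim1-/- range. The mean log2 difference was -1.79 (SE 0.38, adjusted p = 0.0133) unscaled and -1.48 (adjusted p = 0.0455) median-scaled. Rab2a and Rab10 were called lower on unscaled TPM (-1.34, SE 0.31, adjusted p = 0.0178 and -1.18, SE 0.32, adjusted p = 0.032) and not after median scaling, and Rab29 (0.96 with adjusted p = 0.0394) was called higher, with Rab38, after median scaling and not on unscaled TPM. Without the third WT PBS and second WT oxLDL libraries, the unscaled differences were -2.49 for Rab5a, -2.06 for Rab22a, -1.71 for Rab43 and -2.11 for Rab35, and 10 members were called lower in place of 6. The share of all tested genes called lower was then 16.3%, in place of 8.21%.

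**Figure D4:**
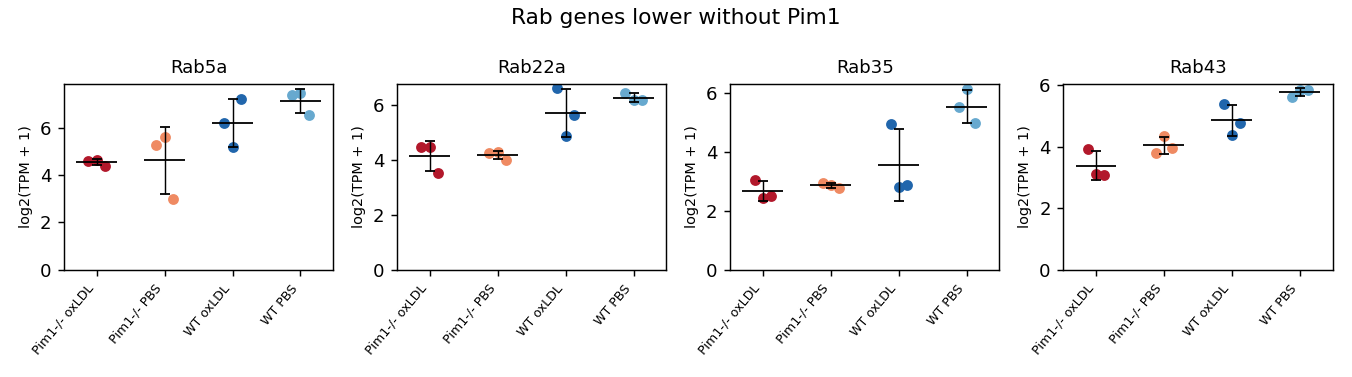
Level in log2(TPM + 1) of the 4 Rab genes called lower in Pim1-/- cells as a mean over both treatments, unscaled and median-scaled. Points are libraries and bars are mean ± SD of 3, and the Pim1-/- points lie below the WT PBS points in all 4 genes.

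Within single treatments the genotype difference had fewer calls. By overlap on unscaled TPM, all 3 Pim1-/- libraries were below all 3 WT libraries for 11 members in PBS and 7 with oxLDL (21.1% and 13% of all genes). They were above them for 4 and 3 members (6.62% and 6.88%). After median scaling they were below for 11 members in PBS and 5 with oxLDL (13.1% and 9.91% of all genes). They were then above for 7 and 3 members (12.4% and 9.96%). In PBS 4 members were lower and 0 higher in Pim1-/- cells on unscaled TPM, where 4.06% of all tested genes were called lower and 0.611% higher. These were the same 4 genes, with log2 differences of -2.68 for Rab35, -2.52 for Rab5a, -2.09 for Rab22a and -1.74 for Rab43. After median scaling none of the 4 passed (adjusted p = 0.0772 to 0.096), where 0.0318% of all genes were lower and 0.0238% higher. The count of 4 also became 0 without the first or the second WT PBS library, or the first or the third Pim1-/- PBS library, became 2 without the second Pim1-/- oxLDL library, and became 7 without the second Pim1-/- PBS library. With oxLDL, limma called 0 members in either direction, where 0% of all tested genes were lower and 0.00794% higher, and at an unadjusted p under 0.05 there were 7 members lower and 0 higher, beside 10.9% of all tested genes in either direction. Without the second WT oxLDL library 1 member was called lower, where 1.1% of all genes were. In that comparison Rab43 (-1.48), Rab22a (-1.56), Rab5a (-1.65) and Rab35 (-0.90) had adjusted p values of 0.347, 0.36, 0.366 and 0.606.

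Transcript length moved with the genotype difference. Across the 45 members the mean Pim1-/- minus WT change had a Spearman correlation of -0.58 with the length of the longest transcript in the GENCODE annotation, and across 12472 tested genes with a length it was -0.49. The 6 members called lower on unscaled TPM had a median length of 3369.5 bases (2133 to 7155), against 2608 bases for the other 39. With the trend of change on length and GC content removed, an alternative added after seeing the data, 5 members were called lower, beside 3.99% of all genes, among them Rab5a (adjusted p = 0.0246), Rab22a (0.0406), Rab35 (0.0457) and Rab43 (0.0233). The oxLDL changes had weaker correlations with length over the members, -0.33 in Pim1-/- and -0.37 in WT cells. Over the 12472 genes they were -0.276 in Pim1-/- and -0.295 in WT cells. The 6 markers of large peritoneal macrophages summed to 503 to 752 TPM in Pim1-/- oxLDL and 706 to 1110 TPM in Pim1-/- PBS, against 367 to 511 TPM in WT oxLDL and 631 to 1020 TPM in WT PBS, overlapping between genotypes under each treatment. Nearly all of this was Cd9 (359 to 1090 TPM), whereas Alox15 was at most 0.489 TPM and Timd4 at most 1.36 TPM. Gata6, the factor that defines these cells, was at 0.254 to 0.839 TPM in Pim1-/- oxLDL and 1.32 to 3.97 TPM in Pim1-/- PBS, against 1.11 to 16.3 TPM in WT oxLDL and 10.9 to 21.9 TPM in WT PBS, lower in Pim1-/- libraries under each treatment. Icam2 went the other way with oxLDL, at 4.33, 8.99 and 9.32 TPM in Pim1-/- against 2.78, 3.64 and 2.18 TPM in WT cells. In PBS Icam2 overlapped between genotypes, and Prg4 overlapped under each treatment. The 6 mesothelial or fibroblast markers summed to 334 to 766 TPM in Pim1-/- oxLDL and 450 to 1370 TPM in Pim1-/- PBS, against 247 to 729 TPM in WT oxLDL and 204 to 445 TPM in WT PBS, apart between genotypes in PBS and overlapping with oxLDL. Most of this was Col1a1, at 336, 580 and 1230 TPM in Pim1-/- PBS against 154, 323 and 186 TPM in WT PBS. The mesothelial markers Msln and Krt19 were at most 0.637 and 0.383 TPM. Upk3b, also mesothelial, went the other way in PBS, at 1.23, 2.48 and 1.16 TPM in Pim1-/- against 4.51, 8.89 and 7.01 TPM in WT cells. The part of these cell types in the Rab differences was not tested.

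**Figure D5:**
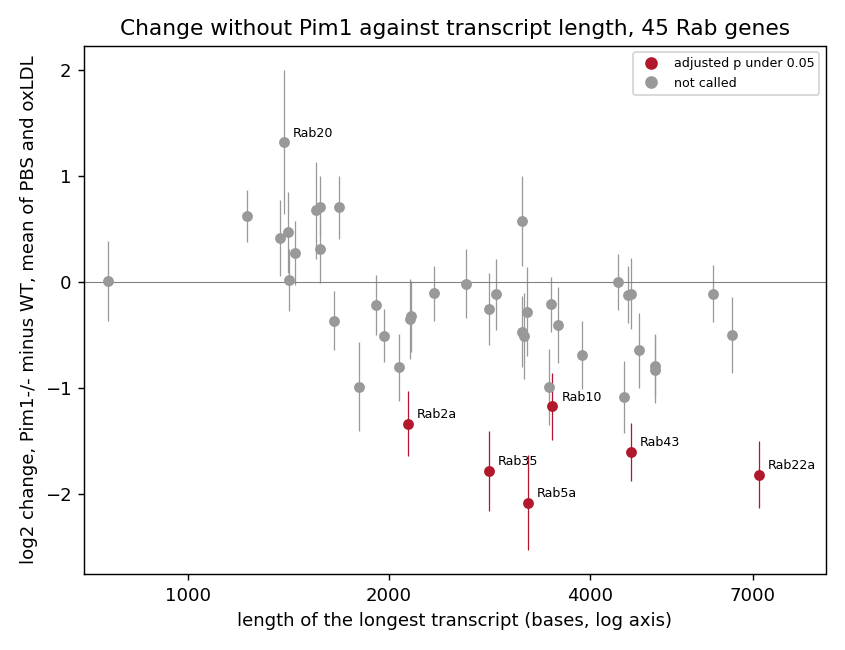
Unscaled log2 difference between Pim1-/- and WT cells, as the mean of PBS and oxLDL, of the 45 Rab genes (vertical, with limma's standard error) against the length of the longest transcript in bases (horizontal, log axis). The 6 genes called lower, in red, lie between 2133 and 7155 bases, and Rab20 is the highest point.

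The proteins that load, switch off and read Rabs were described from lists of 35 GEFs, 36 GAPs, 46 effectors, 7 genes of prenylation and GDP dissociation, and 3 genes of LRRK2 signalling, of which all but 9 effectors were tested. Among the GEFs, oxLDL left 2 higher and 3 lower in Pim1-/- cells (3 and 3 median-scaled) and 2 higher and 10 lower in WT cells (3 and 4 median-scaled). Of all tested genes, 4.45% were higher and 7.80% lower in Pim1-/- cells (6.91% and 4.39% median-scaled), and 5.83% higher and 27% lower in WT cells (12.2% and 8.18% median-scaled), which is the background for the GAPs and effectors too. Dennd3, a GEF for Rab12, rose the most. It was at 30.9, 19.5 and 22 TPM in Pim1-/- oxLDL against 1.25, 1.73 and 1.45 TPM in Pim1-/- PBS, and at 17.6, 32.5 and 32.5 TPM in WT oxLDL against 2.69, 1.55 and 2.5 TPM in WT PBS, with no overlap. Its unscaled log2 change was 3.32 (SE 0.39, adjusted p = 5.67e-05) in Pim1-/- cells and 3.10 (SE 0.39, adjusted p = 6.58e-05) in WT cells. Rab3il1, a GEF for Rab8 proteins that also binds Rab3a, fell the most, to 0.818, 2.2 and 2.08 TPM in Pim1-/- oxLDL against 14.2, 57.5 and 40.5 TPM in Pim1-/- PBS, and to 4.54, 0.897 and 6.14 TPM in WT oxLDL against 38.2, 44.7 and 50.5 TPM in WT PBS (log2 change -3.67 in Pim1-/- and -3.42 in WT cells). Dennd4c, a GEF for Rab10, and Madd, a GEF for Rab3 and Rab27 proteins, were also lower in both genotypes with both scalings.

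The GAPs called on unscaled TPM were all lower with oxLDL. In Pim1-/- cells 11 of 36 were called lower and 0 higher (7 and 1 median-scaled), and in WT cells 19 were called lower and 0 higher (5 and 1 median-scaled). The list's median change was -1.08 in Pim1-/- and -1.42 in WT cells unscaled, and -0.69 in Pim1-/- and -0.63 in WT cells after median scaling, below the medians of all genes given above. The oxLDL changes of all genes also moved with transcript length, and no length-adjusted values were made for the GEF, GAP and effector lists. The part of length in the change of the GAPs was not tested. Tbc1d8, a TBC-domain protein, was at 2.15, 1.31 and 1.58 TPM in Pim1-/- oxLDL against 5.64, 15.2 and 18.1 TPM in Pim1-/- PBS, and at 2.04, 2.68 and 2.79 TPM in WT oxLDL against 23.8, 25.2 and 28.3 TPM in WT PBS (log2 change -2.26 in Pim1-/- and -2.94 in WT cells). Rab3gap2, a subunit of the Rab3 GAP complex, had log2 changes of -2.27 in Pim1-/- and -2.30 in WT cells, and Sgsm2, a GAP for Rab32 and Rab38, of -1.26 in Pim1-/- and -2.60 in WT cells. Each of these 3 passed with both scalings in both genotypes. The one GAP called higher after median scaling was Tbc1d13, a GAP for Rab35 (1.55 with adjusted p = 0.00574 in Pim1-/- and 1.82 with adjusted p = 0.0015 in WT cells), named after its values were seen.

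Of 37 effectors tested, 1 was higher and 4 lower with oxLDL in Pim1-/- cells (2 and 3 median-scaled), and 1 was higher and 15 lower in WT cells (3 and 5 median-scaled). Rab11fip1, a Rab11 effector of recycling endosomes, was the one that rose, to 68.5, 32.3 and 25.9 TPM in Pim1-/- oxLDL against 4.57, 7.86 and 12 TPM in Pim1-/- PBS, and to 56.3, 66.9 and 81.2 TPM in WT oxLDL against 7.73, 8.1 and 13 TPM in WT PBS (log2 change 2.20 in Pim1-/- and 2.72 in WT cells). Its relative Rab11fip5 fell (-2.29 in Pim1-/- and -2.31 in WT cells), as did Plekhm1, a Rab7 effector that joins late endosomes to lysosomes (-1.70 in Pim1-/- and -2.55 in WT cells). Appl2, a Rab5 effector, was at 5.58, 7 and 6.59 TPM in Pim1-/- oxLDL against 26, 44.8 and 34.1 TPM in Pim1-/- PBS, and at 5.41, 5.9 and 4.6 TPM in WT oxLDL against 41.5, 55.6 and 62.2 TPM in WT PBS, with no overlap. Its log2 change was -2.25 (SE 0.35, adjusted p = 0.000744) in Pim1-/- cells and -3.09 (SE 0.35, adjusted p = 3.41e-05) in WT cells. Of the prenylation and GDP dissociation genes, 0 were higher and 1 lower in Pim1-/- cells and 0 higher and 2 lower in WT cells on unscaled TPM, Chml, a Rab escort protein, in both. After median scaling 0 were lower in Pim1-/- cells, where Chml had an adjusted p = 0.0555, and 1 in WT cells. Lrrk2, the kinase that phosphorylates several Rabs, was called higher after median scaling (1.32 with adjusted p = 0.0144 in Pim1-/- and 1.55 with adjusted p = 0.00396 in WT cells) and not on unscaled TPM.

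Between genotypes, as the mean over both treatments, 0 GEFs were higher and 9 lower in Pim1-/- cells (6 lower median-scaled), 6 GAPs were lower (2 median-scaled) and 3 effectors were lower (2 median-scaled), where 8.21% of all tested genes were lower (4.03% median-scaled). For these lists the counts were made without removing the trend on length and GC content. Rufy1, an effector of Rab4 and Rab14 on early endosomes, was at 11, 5.56 and 5.36 TPM in Pim1-/- oxLDL and 22.4, 18.2 and 15.8 TPM in Pim1-/- PBS, against 35.8, 12.3 and 42.8 TPM in WT oxLDL and 86.6, 96.8 and 88.7 TPM in WT PBS. Its mean log2 difference was -2.02 (SE 0.32, adjusted p = 0.00704) unscaled and -1.71 (adjusted p = 0.0298) median-scaled. Rin3, a GEF for Rab5 proteins and Rab31, was at 10.6, 4.21 and 3.04 TPM in Pim1-/- oxLDL and 9.71, 17.5 and 20.2 TPM in Pim1-/- PBS, against 17, 12 and 14.7 TPM in WT oxLDL and 74, 73.2 and 52.7 TPM in WT PBS (-1.68, SE 0.31, adjusted p = 0.00925 unscaled). Ric1, part of the GEF for Rab6 proteins, had a mean log2 difference of -1.80, and Uso1, the Rab1 effector p115 of ER to Golgi tethering, of -1.59. Each of these 4 passed with both scalings. Rabac1, a prenylated Rab acceptor, was called higher on unscaled TPM (1.79, SE 0.54, adjusted p = 0.048) and not after median scaling, with 381, 254 and 252 TPM in Pim1-/- oxLDL and 226, 84.7 and 638 TPM in Pim1-/- PBS, against 56.8, 339.5 and 32.5 TPM in WT oxLDL and 73, 54.1 and 65.6 TPM in WT PBS, overlapping with oxLDL and apart in PBS.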

How the data were processed

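The deposited table holds gene-level TPM for 12 libraries (TruSeq stranded mRNA, per the labels), and the submitters' processing notes name Salmon, DESeq2 and mm10 without versions. The TPM values were made by the authors and sum to the same total in each library, so depth is unknown and no interval from counts is given; the annotation behind them is not given in the sources used here. No 2 columns were identical. Genes at 1 TPM or more in 3 libraries were tested with limma 3.58.1 in R 4.3.3 on log2(TPM + 1): 4 group means over all 12 libraries, empirical Bayes with an intensity trend, 6 contrasts, and Benjamini-Hochberg adjustment over 12594 genes at 0.05. The fit was tested on simulated data. Median scaling divided each library by its median ratio to the mean library. An exact permutation test of 3 against 3 libraries cannot go below 0.1, so none was used.

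Members and lists were chosen with earlier results of these data known. All 12 values are given for the most abundant member of each role and for members called in any contrast with both scalings, and up to 3 called genes per pathway list, contrast and direction were eligible to be named. Symbols were matched to GENCODE M21 (98.4%) for lengths. Alternatives were other pseudocounts, filters and scalings, a replicate block, each library left out, and removal of the length and GC trend. 1 further row that matches the naming pattern is not reported here.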

Additional observations from a re-analysis of the deposited data

How the results depend on the processing

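The 15 member changes called with both scalings kept their direction under every alternative run, and of the single-gene values 707 kept their side of the threshold, 139 lost the call, 26 gained it and 0 changed sign. These tallies cover only changes already called, unscaled or median-scaled, in the same 12 libraries. Median scaling is itself among the alternatives, so the kept directions are no independent support. The counts of members called moved more, and the cause was not tested. For Pim1-/- minus WT in PBS, the 4 lower members became 1 with no filter, 0 with median scaling, 0 with Rn45s and Mir6236 left out, 0 in a fit of the compared groups only, 0 with median scaling without the third WT PBS or the second WT oxLDL library, and 1 once the trend on length and GC was removed, and 1 was higher, in place of 0, with quantile normalization. For the mean of both treatments, the 0 higher members became 2 with median scaling, 2 with quantile normalization, 5 and 3 with median scaling without the third WT PBS or the second WT oxLDL library, and 2 without both on unscaled TPM, where the 6 lower became 10. For Pim1-/- minus WT with oxLDL, 3 were lower, in place of 0, without both libraries. For oxLDL in Pim1-/- cells, the 2 higher became 4 with median scaling, 5 and 4 with median scaling without either library, and the 2 lower became 5 in a fit of the compared groups only and 5 without both. For oxLDL in WT cells, the 3 higher became 6 with median scaling, 5 with quantile normalization, 8 and 5 with median scaling without either library, and the 10 lower became 6 with a filter at 5 TPM, 4 with median scaling, 6 in a fit of the compared groups only, 5 and 2 with median scaling without either library, and 6 once the trend on length and GC was removed.

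With each library left out in turn, members lower in Pim1-/- PBS ranged from 0 to 7, lower in Pim1-/- with oxLDL from 0 to 1, lower in the genotype mean from 4 to 9, higher with oxLDL in Pim1-/- cells from 1 to 3 and lower from 2 to 6 (6 without the third WT PBS library), and higher with oxLDL in WT cells from 3 to 3 and lower from 5 to 13 (5 without the second WT oxLDL library). Replicate numbers did not pair the libraries: same-numbered deviations had correlations of -0.521 to 0.165, over 0.1 in 5 of 18 pairs. The replicate block left 2 members lower in Pim1-/- PBS in place of 4, and with median scaling as well 0, with 3 lower with oxLDL in WT cells and 2 lower in the genotype mean. Group mean levels of 81 of 180 member and group pairs moved by over 1 SD under median scaling. TPM keeps no depth, so the precision of members near 1 TPM is unknown.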
